A study of Mus musculus with 6 samples.

Results

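Trp53 and 9 of its best known target genes were followed here through cultured murine small cell lung cancer (SCLC) cells labelled as wild type or as knockout for the receptor tyrosine kinase ERBB2. The 10 genes were chosen by symbol, as the p53 gene itself and widely used readouts of its activity, and each matched exactly 1 of the 20273 gene rows of the expression table. Bulk RNA sequencing covered SCLC cells, of lung origin per the labels, in 3 WT libraries (WT 1 to WT 3, genotype SCLC WT) and 3 ERBB2 KO libraries (ERBB2 KO 1 to ERBB2 KO 3, genotype SCLC ERBB2 KO). For the knockout, cells were transfected with a Cas9 construct against Erbb2, selected with puromycin and sorted as single clones. According to the methods of the study, its murine SCLC lines were established from lung tumors or liver metastases of mice in which Adeno-Cre deletes floxed Rb1 and Trp53. By that account WT and ERBB2 KO share the loss of both tumor suppressors, and neither group is a control with intact p53. Neither source gives age, parental line or clone for a library, and the exons removed from Trp53 are not named.

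p53 is a transcription factor that is held at a low level by its own target MDM2, a ubiquitin ligase, and is stabilized after DNA damage or oncogenic stress. It then binds paired copies of a short DNA element and switches on genes that halt the cell cycle (Cdkn1a), feed back on p53 and its signaling (Mdm2, Ccng1, Zmat3, Phlda3) or promote cell death (Fas, Perp, Bax, Bbc3). Several of these genes also respond to other transcription factors, so their transcripts do not depend on p53 alone.

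The DNA element through which p53 acts is shown first. The genes were chosen as known p53 targets, so half-sites near them are not a result independent of that choice. The p53 half-site, a motif of 10 bases, was searched in windows from 250 bases before to 50 bases after RefSeq start sites (build GRCm38.p6). The motif reads the same on either strand. Windows were at hand for 8 of the 10 genes. At least 1 half-site was found for 5 of these 8 (Trp53, Cdkn1a, Mdm2, Ccng1 and Bax), against 9.55% of all 27025 genes with a window, and none for Phlda3, Fas or Bbc3. The stretches are given in the direction of the gene, with the half-sites in capitals:
Cdkn1a, chr17:29090886-29090957, plus strand: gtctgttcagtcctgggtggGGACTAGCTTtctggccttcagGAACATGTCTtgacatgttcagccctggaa
Trp53, chr11:69580264-69580313, plus strand: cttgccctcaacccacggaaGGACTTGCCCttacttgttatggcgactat
Mdm2, chr10:117710915-117710964, minus strand: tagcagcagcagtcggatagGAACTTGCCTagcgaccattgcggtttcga
Ccng1, chr11:40755442-40755491, minus strand: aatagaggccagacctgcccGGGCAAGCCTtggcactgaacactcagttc
Bax, chr7:45467070-45467119, minus strand: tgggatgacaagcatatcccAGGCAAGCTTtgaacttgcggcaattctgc
The Cdkn1a half-sites began 73 and 51 bases before the first of the 2 annotated starts, and the nearer of them lay 2841 bases before the second start, whose own window held none. Those of the other genes began 75 (Trp53), 186 (Mdm2), 185 (Ccng1) and 201 (Bax) bases before the start. A match is a description of the letters in the window and was not set against any binding data.

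Depth and library makeup bear on all results that follow. Library totals were 8927461 to 13255671 reads, so that 3 reads, taken as the limit below which a gene was not detectable, stand for 0.226 to 0.336 CPM, the reads of a gene scaled to the library total. The limits cover counting error only. The targeted gene Erbb2 was at 3.95 to 10.7 CPM across WT against 2.80 to 12.1 CPM across ERBB2 KO, which does not tell the groups apart. The transcript level thus does not check the knockout, which the study reports to have checked on protein, by western blot and flow cytometry. The position of the edit is not given in the sources used here. Rb1 was at 7.17 to 9.65 CPM across WT against 7.12 to 7.37 CPM across ERBB2 KO. The libraries did not sort by genotype. Over the 11803 genes tested, WT 1 correlated with ERBB2 KO 2 and ERBB2 KO 3 at r = 0.959 and 0.955 but with WT 2 and WT 3 at 0.919 and 0.931, and ERBB2 KO 1 with no library above 0.913. Xist was at 208 and 178 CPM in WT 2 and WT 3 and at most at 0.112 CPM in the others. Of 10 neuroendocrine markers 5 had rows, with Ncam1 at 121 to 1253 CPM and Chgb, Syp and Dll3 at or below 0.560 CPM. Uchl1 had 0 reads in each ERBB2 KO library and was at 0.546, 26.6 and 10.7 CPM across WT 1 to 3. The part of this marker in the results below was not tested. The 5 neuroendocrine markers without rows were not analysed here. The 6 measured fibroblast markers summed to 54.7 to 229 CPM across WT, to 321 CPM for ERBB2 KO 1 and to 49.0 and 80.6 CPM for the other knockout libraries. The 3 measured epithelial markers summed to 723 and 749 CPM for WT 2 and WT 3. They summed to 2160 CPM for WT 1 and to 1410 to 1820 CPM across ERBB2 KO. Krt8 and Krt18 carried these sums, while Cdh1 was at 10.0 CPM in WT 3 and at most at 0.336 CPM in the other libraries. Where WT 2 and WT 3 stand apart from the other libraries, a difference between genotypes cannot be told apart from one between parental lines, which are not given. The study calls its replicates biological. Neither it nor the labels say whether they were separate cultures or clones, so p-values measure the spread between these libraries. Each difference given below subtracts WT from ERBB2 KO on the log2(CPM + 1) scale, on which differences of low genes come out too small, and p-values are two-sided from limma, adjusted over all genes tested.

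Trp53 itself (chromosome 11, 69580348 to 69591873) was close to the limit of detection in the 6 libraries. It was at 0.819, 1.13 and 0.830 CPM across WT 1 to 3 against 0.448, 0.509 and 1.04 CPM across ERBB2 KO 1 to 3. The groups overlapped, since ERBB2 KO 3 lay above WT 1 and WT 3 while ERBB2 KO 1 and ERBB2 KO 2 lay below every WT library. These values rest on 54 reads among 67000618 in all, with 9, 14 and 11 reads in WT and 4, 6 and 10 in ERBB2 KO. The exact Poisson 95% intervals, which cover counting error only, ran from 0.122 to 1.15 CPM for ERBB2 KO 1 and from 0.617 to 1.89 CPM for WT 2, and thus overlapped. Trp53 did not reach 1 CPM in 3 libraries and was therefore not tested with the other genes. Without a filter on low values its log2 difference was -0.22 ± 0.23 (SE, limma, adjusted p = 0.729). The reads could come from any part of the locus that is left after recombination, so they do not check the deletion.

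**Figure D1:**
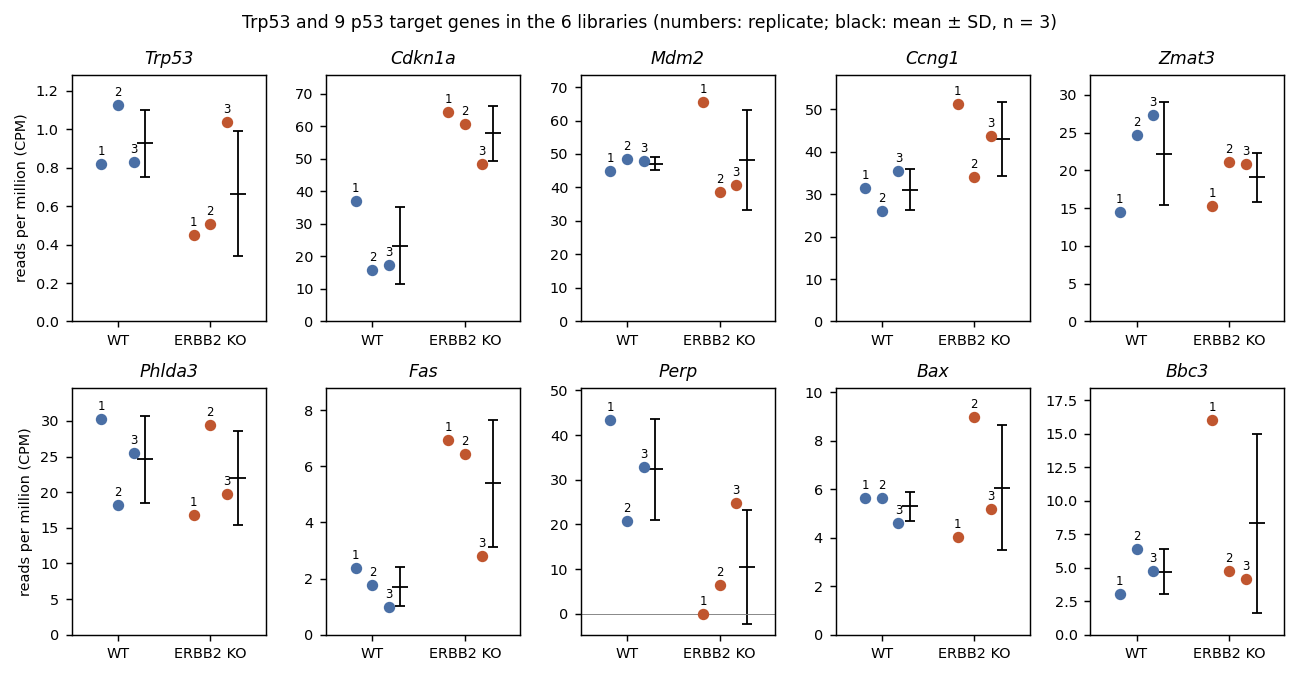
CPM of Trp53 and the 9 target genes in each library (blue, WT; orange, ERBB2 KO; numbers give the replicate), with the mean and SD of each group in black (n = 3). The y axes are linear and differ between panels. The ERBB2 KO libraries lie above the WT libraries for Cdkn1a and Fas, and Perp is at 0 CPM in ERBB2 KO 1 and at 24.8 CPM in ERBB2 KO 3.

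Cdkn1a, the gene of the cyclin-dependent kinase inhibitor p21 that mediates cell cycle arrest by p53, showed the smallest p of the 9 tested genes. In bulk samples, fewer cells that express a gene and less RNA per cell cannot be told apart, here and for the other genes. Cdkn1a (chromosome 17, 29090979 to 29100722) was at 37.0, 15.8 and 17.3 CPM across WT 1 to 3 against 64.4, 60.8 and 48.4 CPM across ERBB2 KO 1 to 3. The lowest ERBB2 KO value thus lay above the highest WT value, and WT 1 stood between WT 2 and WT 3 on one side and the ERBB2 KO libraries on the other. WT averaged 23.3 ± 11.8 CPM against 57.9 ± 8.40 CPM for ERBB2 KO (SD, n = 3 each), a ratio of 2.48. On the log2 scale this came to 1.37 ± 0.34 (SE), short of the threshold of 0.05 (limma, adjusted p = 0.321). It passed without WT 1, when it was 1.74 (limma, adjusted p = 0.0323), and with array quality weights, when it was 1.52 (limma, adjusted p = 0.0193). Without WT 1 the WT group is WT 2 and WT 3, the libraries with Xist reads. The array weights were 0.418 for WT 1 and 0.268 for ERBB2 KO 1, against 1.08 to 3.05 for the other libraries. Both settings thus lessen the part of WT 1 and are not separate checks. Against WT 1 alone, without WT 2 and WT 3, the difference was 0.62, a value given without a test because WT is then 1 library, and for ERBB2 KO 2 and ERBB2 KO 3 against WT 1 it was 0.54. With 3 libraries a group, the smallest p an exact permutation test allows is 0.1.

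The genes that feed back on p53 or its downstream signaling showed smaller differences. Mdm2, the ubiquitin ligase that degrades p53 (chromosome 10, 117688875 to 117710758), was at 44.9, 48.5 and 48.0 CPM across WT against 65.4, 38.7 and 40.7 CPM across ERBB2 KO. The WT libraries were within a narrow range, ERBB2 KO 1 lay above it and the other ERBB2 KO libraries below it. The group means were 47.1 ± 1.95 and 48.3 ± 14.9 CPM (SD, n = 3 each), with a log2 difference of -0.0058 and a 95% interval from -0.57 to 0.56 (limma, adjusted p = 0.993). Its sign depended on the setting, for example -0.24 without ERBB2 KO 1 against 0.13 without ERBB2 KO 2. Ccng1, cyclin G1, which recruits a phosphatase to MDM2 (chromosome 11, 40748552 to 40755309), was at 31.5, 25.9 and 35.5 CPM across WT against 51.2, 34.0 and 43.7 CPM across ERBB2 KO. Among the ERBB2 KO libraries only ERBB2 KO 2 lay within the WT range, and the log2 difference was 0.45 ± 0.23 (SE, limma, adjusted p = 0.426).

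Zmat3, an RNA-binding zinc finger protein (chromosome 3, 32334792 to 32365665), was at 14.5, 24.7 and 27.4 CPM across WT against 15.3, 21.1 and 20.9 CPM across ERBB2 KO. The ERBB2 KO libraries all lay within the WT range, WT 1 being the lowest of the 6 (log2 difference -0.17, 95% interval -0.87 to 0.52, limma adjusted p = 0.821). Without WT 2 and WT 3 the difference was 0.36. Phlda3, a pleckstrin homology domain protein that restrains AKT at the membrane (chromosome 1, 135766085 to 135769134), was at 30.2, 18.1 and 25.5 CPM across WT against 16.8, 29.4 and 19.7 CPM across ERBB2 KO. Its groups overlapped as well, with ERBB2 KO 1 the lowest and WT 1 the highest library (log2 difference -0.16, 95% interval -0.86 to 0.53, limma adjusted p = 0.829). For Zmat3 the RefSeq table lists 1 overlapping long noncoding RNA, and for the other 9 genes it lists no overlapping gene.

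Among the genes of cell death, Fas was on average higher in ERBB2 KO and Perp lower. Fas, the death receptor CD95 (chromosome 19, 34290647 to 34327775), was weakly expressed at 2.37, 1.77 and 0.981 CPM across WT against 6.94, 6.44 and 2.80 CPM across ERBB2 KO. The groups did not overlap, although ERBB2 KO 3 stood close to WT 1. These values rest on 13 to 26 reads in WT and 27 to 76 in ERBB2 KO. The means were 1.71 ± 0.696 and 5.40 ± 2.26 CPM (SD, n = 3 each), a ratio of 3.16, and the log2 difference was 1.20 ± 0.39 (SE, limma, adjusted p = 0.350). It was 0.85 without WT 2 and WT 3.

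Perp, a tetraspan membrane protein of desmosomes that contributes to p53-dependent apoptosis (chromosome 10, 18845071 to 18857073), varied most of the 10 genes. It was at 43.4, 20.7 and 32.8 CPM across WT against 0, 6.53 and 24.8 CPM across ERBB2 KO 1 to 3. ERBB2 KO 3 lay within the WT range, ERBB2 KO 2 lay below it, and ERBB2 KO 1 held 0 reads where the WT libraries held 257 to 477. Set against the 3-read limit of that library, 0.336 CPM, Perp in ERBB2 KO 1 was at least 96.2-fold lower than the WT mean. The log2 difference between the groups was -2.46 ± 1.06 (SE, limma, adjusted p = 0.378) and moved to -1.20 without ERBB2 KO 1. The spread of Perp over the 6 libraries (SD 2.04 on the log2(CPM + 1) scale) was at the 98.8 percentile of all genes tested, against 88.7 for Cdkn1a, 86.8 for Fas and 23.0 for Mdm2. The genes beside Perp on chromosome 10 were looked up after its values were seen. Tnfaip3, 155.8 kb further along, was at 1.34 CPM in ERBB2 KO 1 and 6.95 to 18.4 CPM in the other libraries, and Nhsl1 on the other side was at 1.01, 1.02 and 1.97 CPM across ERBB2 KO 1 to 3 and at 5.01 to 6.77 CPM across WT. Of the genes with rows these are the nearest on either side above 1 CPM in every library, and both were read in ERBB2 KO 1. Reps1 and Ifngr1, further out, were at 18.7 and 48.2 CPM in that library.

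The pair of BCL2 family members, Bax and Bbc3, was at low levels apart from Bbc3 in ERBB2 KO 1. The spread over the 6 libraries was at the 39.5 percentile of all genes tested for Bax and at 84.2 for Bbc3. Bax, which permeabilizes the mitochondrial outer membrane (chromosome 7, 45461695 to 45466903), was at 5.65, 5.64 and 4.60 CPM across WT against 4.03, 8.99 and 5.19 CPM across ERBB2 KO, so that ERBB2 KO 1 lay below, ERBB2 KO 2 above and ERBB2 KO 3 within the WT range (log2 difference 0.11, 95% interval -0.66 to 0.88, limma adjusted p = 0.898). Bbc3, the BH3-only protein PUMA (chromosome 7, 16308398 to 16318334), was at 3.00, 6.36 and 4.75 CPM across WT against 16.0, 4.75 and 4.16 CPM across ERBB2 KO. Its higher ERBB2 KO mean came from ERBB2 KO 1, since the log2 difference was 0.52 ± 0.51 (SE, limma, adjusted p = 0.660) with all libraries and -0.024 without that one.

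**Figure D2:**
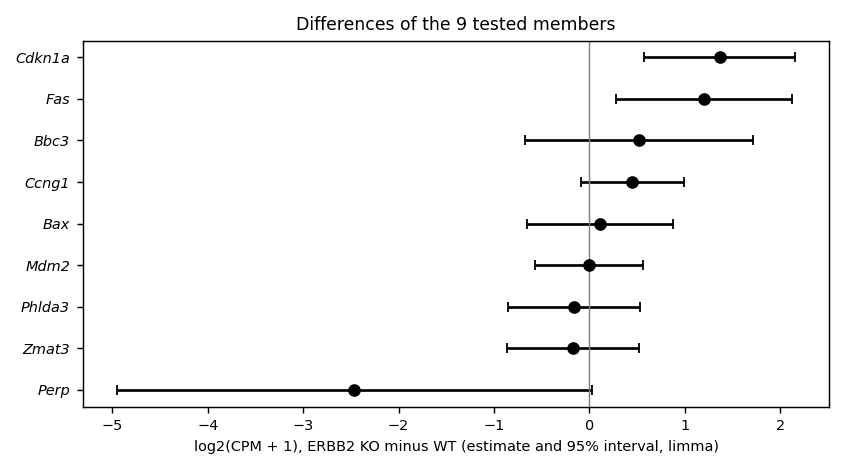
Log2 differences (ERBB2 KO minus WT, log2(CPM + 1) scale) of the 9 tested genes with 95% intervals from limma, ordered by size. The intervals of Cdkn1a (0.57 to 2.16) and Fas (0.28 to 2.13) lie above 0, unadjusted for the number of genes, and the widest is that of Perp.

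Counted together, 5 of the 9 tested genes were on average higher and 4 lower in ERBB2 KO, with a median log2 difference of 0.11 against -0.039 over all genes tested. Of them 0 had an adjusted p below 0.05 by limma, as had 0% of all genes tested. At an unadjusted p below 0.05, 2 of 9 were higher (Cdkn1a and Fas) against 5.96% of all genes tested, and 0 were lower against 7.27%. With voom on recovered reads 3 members had an unadjusted p below 0.05, and 0 an adjusted one. The same pair, Cdkn1a and Fas, had every ERBB2 KO value above every WT value, as did 8.76% of all genes tested, and 0 members had every value below, against 10.6%. The immune markers with rows (3 of 6) also had a higher sum in each ERBB2 KO library (4.41 to 7.28 CPM) than in WT (1.21 to 2.82 CPM), carried by Cd68, while Ptprc, the pan-leukocyte marker, was at 0 reads in 4 of the 6 libraries and at most 0.415 CPM. Their part in the values of Cdkn1a and Fas was not tested.

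ERBB2 KO 1 stood at one end of the range for nearly all of these genes. It was the highest of the 6 libraries for Cdkn1a, Mdm2, Ccng1, Fas and Bbc3 and the lowest for Trp53, Phlda3, Perp and Bax, that is for 9 of the 10 genes. Of the 9 tested ones it was the highest or lowest for 8, and of all genes tested for 51.4%, more than any other library (23.3% for WT 1 to 41.8% for WT 2). ERBB2 KO 3 was at neither end for any of the 10. ERBB2 KO 1 was also the library with the lowest total and, as given above, the largest sum of fibroblast markers, carried by Dcn at 267 CPM, while Col1a2 was at 0.896 CPM there and at 5.51 to 199.8 CPM in the others. The part of either in these values was not tested.

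The 10 genes did not share a single pattern across libraries. Of their 45 pairs 20 had a positive and 25 a negative correlation of log2(CPM + 1) over the 6 libraries, given here as a description because the libraries share their depth and makeup. The closest pairs were Cdkn1a and Fas (Pearson r = 0.895, Spearman rho = 0.943, n = 6) and Mdm2 and Bbc3 (r = 0.860, rho = 0.771). The most opposed were Perp and Bbc3 (r = -0.905, rho = -0.714) and Fas and Perp (r = -0.822, rho = -0.714). Each r spans both groups, so that of Cdkn1a and Fas includes the group difference both genes showed. ERBB2 KO 1 was the highest library for Mdm2, Bbc3 and Fas and the lowest for Perp, which bears on the other pairs named. Trp53 ran opposite to Cdkn1a (r = -0.693, rho = -0.829), on the few reads given above. Likeness was looked up among genes of at least 10 CPM on average, and Gm and Rik symbols were passed over in naming. Of 7817 other genes, those most like Cdkn1a over the 6 libraries were Mcm6 (r = 0.999), Tanc2 (0.997), Nelfe (0.993), Cyhr1 (0.992) and Rps28 (0.992), and 117 had an r above 0.95. Most like Trp53 were Thumpd1 (0.981), Tpm3 (0.981), Slc10a3 (0.979), Uqcrb (0.973) and Vps54 (0.971), with 11 genes above 0.95. These values rest on 4 to 14 Trp53 reads a library, so counting error bears on them.

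The regulators of p53 were described next. Of 19 tested regulators 9 were on average higher and 10 lower in ERBB2 KO (median log2 difference -0.012), 0 passed over all genes, and an unadjusted p below 0.05 was reached by 1 of the higher and 2 of the lower (5.96% and 7.27% of all genes tested). Cdkn2a, whose locus encodes a cyclin-dependent kinase inhibitor and the MDM2 inhibitor ARF from partly shared exons, was abundant in the 6 libraries. It was at 179.8, 267 and 352 CPM across WT against 494, 179.1 and 126 CPM across ERBB2 KO, so that the groups overlapped and ERBB2 KO 1 was again the highest. Its log2 difference was -0.20 (limma, adjusted p = 0.881), and reads counted per gene do not separate the products. Mdm4, the MDM2 relative that masks the p53 activation domain, was at 37.1, 20.5 and 18.1 CPM across WT against 26.4, 35.0 and 37.5 CPM across ERBB2 KO (limma, adjusted p = 0.556). WT 1 lay with ERBB2 KO 2 and ERBB2 KO 3 for this gene. Atr, a kinase of the replication stress response, was at 24.1 ± 5.01 CPM across WT against 15.5 ± 2.01 CPM across ERBB2 KO, and Ppp1r13l, the inhibitory p53 binding protein iASPP, at 5.73 ± 2.02 against 2.43 ± 1.04 CPM. Trp53bp1, the DNA repair adaptor 53BP1, was at 5.00 ± 1.76 against 8.66 ± 1.05 CPM, and Ppm1d, the phosphatase WIP1 that turns off p53 and its kinases, at 15.4 ± 0.601 against 23.5 ± 6.07 CPM (SD, n = 3 each). The lowest adjusted p among the regulators was 0.350 (limma). Of the p53 relatives, Trp63 was at most at 0.637 CPM and could not be tested.

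Of 41 tested further p53 targets, 15 were on average higher and 26 lower, with a median log2 difference of -0.25 against -0.039 over all genes. Of these 41, 0 passed over all genes (limma), 3 had an unadjusted p below 0.05 in the higher and 7 in the lower direction, against 5.96% and 7.27% of all genes tested. Among the 11 tested genes of arrest and repair, 9 were lower, as were 6274 of all 11803. Gtse1, a mitotic protein first described in mouse as induced by p53, was at 30.2, 28.4 and 26.1 CPM across WT against 8.96, 8.31 and 8.20 CPM across ERBB2 KO. Replicates of this gene lay close together within each group, and the log2 difference was -1.62 ± 0.20 (SE, limma, adjusted p = 0.267). It was -1.57 without WT 1 (limma, adjusted p = 0.0435) and -1.72 without WT 2 and WT 3. Rrm2b, a ribonucleotide reductase subunit for DNA repair, was at 8.10, 8.94 and 10.5 CPM across WT against 5.94, 5.94 and 5.92 CPM across ERBB2 KO, each below every WT value. The translesion polymerase gene Polk was at 10.9 ± 2.34 against 7.80 ± 0.651 CPM, and the kinase gene Plk2 at 48.5 ± 8.05 against 36.1 ± 17.5 CPM (SD, n = 3 each). Gadd45a, a stress protein that responds to p53 and other factors, was at 4.46, 10.2 and 10.4 CPM across WT against 10.4, 3.99 and 2.60 CPM across ERBB2 KO (limma, adjusted p = 0.618).

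Of 11 tested targets linked to cell death 6 were higher and 5 lower, where 5529 of all 11803 genes tested were higher. Bid, a BH3-only protein, was at 23.2, 38.0 and 29.0 CPM across WT against 16.0, 20.9 and 8.73 CPM across ERBB2 KO, each below every WT value (log2 difference -0.99 ± 0.35, limma adjusted p = 0.350). Siva1, a death domain adaptor, was at 77.2, 67.5 and 75.3 CPM across WT against 201.1, 85.1 and 95.8 CPM across ERBB2 KO, each above every WT value (limma, adjusted p = 0.410). Pmaip1, the BH3-only protein NOXA, had 0 reads in WT 2 and in ERBB2 KO 1 and was at 1.13 to 6.56 CPM in the other libraries. The p53-induced exonuclease Aen was at 88.2 ± 11.6 against 66.6 ± 20.4 CPM, and Ei24, a protein of the endoplasmic reticulum, at 49.7 ± 11.2 against 34.9 ± 9.28 CPM (SD, n = 3 each).

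Of 10 tested metabolic targets, 2 had every ERBB2 KO value above every WT value, as did 8.76% of all genes tested. Fdxr, the mitochondrial ferredoxin reductase, was at 10.3, 3.22 and 5.21 CPM across WT against 17.7, 14.4 and 11.5 CPM across ERBB2 KO (log2 difference 1.20 ± 0.40, limma adjusted p = 0.350). As for Cdkn1a, WT 1 was the WT library nearest to ERBB2 KO, and the difference without WT 2 and WT 3 was 0.44. The glutaminase gene Gls2 was at 2.28 ± 1.08 against 4.48 ± 0.288 CPM, Tigar, a fructose bisphosphatase, at 17.2 ± 3.13 against 11.9 ± 6.52 CPM, and Ddit4, an inhibitor of mTORC1, at 12.3 ± 1.96 against 26.2 ± 26.4 CPM (SD, n = 3 each). The Ddit4 value of ERBB2 KO 1, 56.6 CPM, set that mean. On average 6 of the 10 were higher and 4 lower, where 5529 of all 11803 genes tested were higher.

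The list of secreted and signaling targets also held genes of other kinds, among them Ckap2, Rps27l and Pvt1. On average 8 of its 9 tested genes were lower, as were 6274 of all 11803. The median log2 difference of the list, -0.81, was the value of Ckap2 and the lowest of the lists. Of these 9, an unadjusted p below 0.05 was reached by the 1 higher and 5 of the 8 lower genes, where all genes tested gave 5.96% higher and 7.27% lower. By limma, 0 of the 9 had an adjusted p below 0.05. The microtubule protein gene Ckap2 was at 78.4 ± 5.19 against 44.8 ± 8.77 CPM and the ribosomal protein paralog Rps27l at 266 ± 67.9 against 173 ± 17.2 CPM, a gene whose reads may be shared with its near relative Rps27. The long noncoding RNA Pvt1 was at 11.1 ± 3.67 against 20.7 ± 1.52 CPM (SD, n = 3 each).

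Cell cycle genes that p53 represses through p21 and the DREAM complex were set beside Cdkn1a. Of 12 tested, 4 were higher and 8 lower (median log2 difference -0.18), where 6274 of all 11803 genes were lower. An unadjusted p below 0.05 was reached by 3 of the lower ones (7.27% of all genes tested), and 0 passed the threshold over all genes (limma). Ccna2, cyclin A2, was at 196, 233 and 237 CPM across WT against 127, 134 and 146 CPM across ERBB2 KO (log2 difference -0.70 ± 0.16, limma adjusted p = 0.321), each below every WT value. The mitotic checkpoint kinase gene Bub1 was at 75.8 ± 1.51 against 49.0 ± 7.59 CPM and the mitotic kinase gene Cdk1 at 294 ± 30.7 against 218 ± 25.3 CPM (SD, n = 3 each). Plk1, another mitotic kinase, was at 80.9, 8.46 and 9.20 CPM across WT against 55.9, 65.5 and 85.8 CPM across ERBB2 KO. For Plk1 the libraries with Xist reads, WT 2 and WT 3, were the low ones, and its log2 difference of 1.79 (limma, adjusted p = 0.384) was 2.81 without WT 1 (limma, adjusted p = 0.0106) and -0.25 without WT 2 and WT 3.

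**Figure D3:**
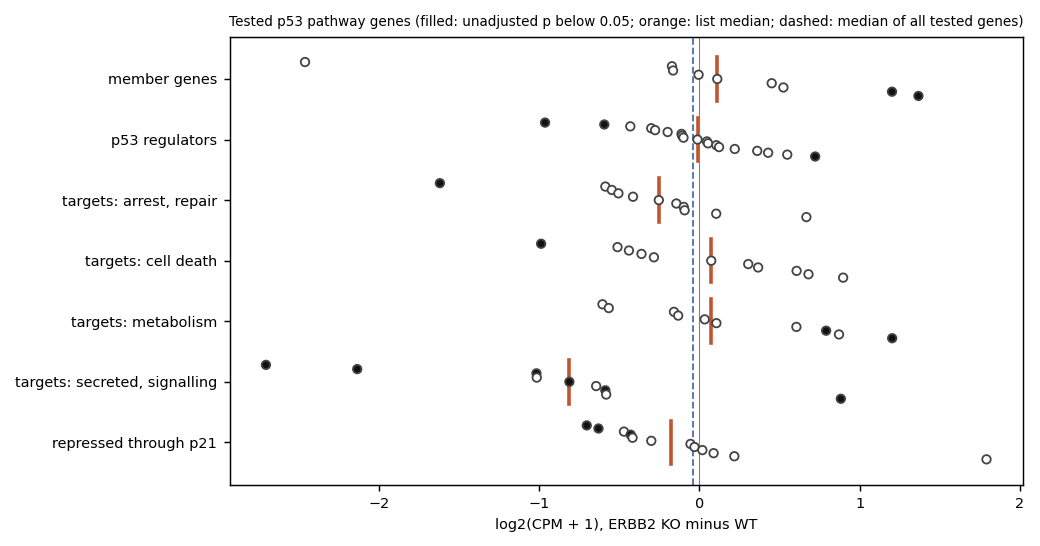
Log2 difference (ERBB2 KO minus WT, log2(CPM + 1) scale) of each tested gene of the p53 pathway, by list. Filled points have an unadjusted p below 0.05, orange bars are list medians and the dashed line is the median of all genes tested (-0.039). The list of secreted and signaling targets, which also holds genes of other kinds such as Ckap2, has the lowest median, -0.81.

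How far the differences rest on single libraries was laid out for 5 of the genes. Cdkn1a, Fas and Ccng1 were higher in ERBB2 KO and Perp lower under each of the 18 alternatives tried, and Cdkn1a passed the threshold under 2 of them. Mdm2 changed sign in 7. Without WT 2, WT 3 and ERBB2 KO 1, a choice made after seeing the data, the differences were 0.54 for Cdkn1a, 0.66 for Fas, 0.28 for Ccng1, -0.17 for Mdm2 and -1.67 for Perp.

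**Figure D4:**
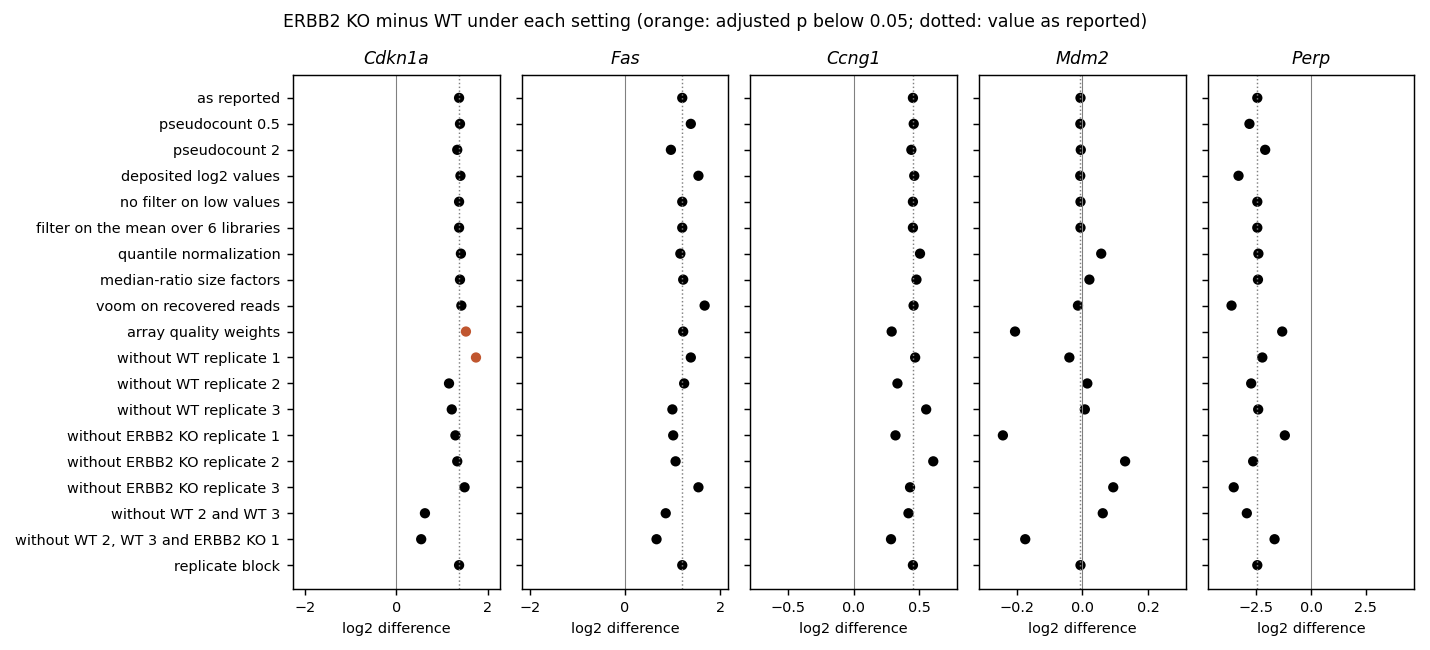
Log2 difference (ERBB2 KO minus WT) of Cdkn1a, Fas, Ccng1, Mdm2 and Perp as reported (top, and dotted line) and under each alternative. Orange points have an adjusted p below 0.05, which only Cdkn1a reached, with array quality weights and without WT 1. The x axes differ between panels.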

How the data were processed

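RNA was sequenced by the authors in 3 WT and 3 ERBB2 KO libraries. Per the labels, TruSeq total RNA libraries were made, whereas the study's methods describe QuantSeq 3' libraries, and which applied is not settled. The submitters' notes name mm10. Under RNA sequencing, the study's methods name an alignment with Bwa to another mouse build, followed by duplicate marking and mutation calling. Whether it also gave the expression table is not stated, and the counter and annotation are not given in the sources used here. Deposited by the authors were log2 CPM, to which a small prior had been added. CPM were obtained as 2 to the power of the value less the shared floor (0.179 CPM), and 100% of values above 0 were whole multiples of a step, within 0.1 of it, taken as 1 read. Rows whose symbols had become dates (14) stayed in the totals but out of the tests.

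Genes that reached 1 CPM in 3 or more libraries (11803) were fitted with limma 3.58.1 in R 4.3.3 on log2(CPM + 1), without covariates and with the trend option, and with Benjamini-Hochberg adjustment over all genes (threshold 0.05). The fit was tested on simulated counts that varied independently between libraries. That setting does not cover the way these libraries group, so it does not bear on their p-values. Members, lists and alternatives were chosen with earlier results of these data known, so lists are given as counts and medians. Named were the 10 members, up to 4 genes per list with the smallest unadjusted p, Cdkn2a, Mdm4, Gadd45a and Pmaip1, Rb1, and the 5 genes most correlated with Trp53 and with Cdkn1a. Genes without a row were not analysed here. A gene that this rule names is not reported here. Alternatives were other pseudocounts, the deposited log2 values, other filters, quantile and median-ratio scaling, voom, array weights, a replicate block and leaving out libraries. Promoter sequences and positions are from RefSeq, GRCm38.p6, which is the build mm10.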

Additional observations from a re-analysis of the deposited data

How the results depend on the processing

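The processing alternatives left Cdkn1a, Fas and Ccng1 higher and Perp lower in ERBB2 KO, whereas counts of genes past a threshold moved with the libraries included. Genes past the threshold (adjusted p below 0.05) numbered 0 as reported, 1759 with array quality weights and 0 to 146 when leaving out 1 library, with 146 without WT 1 and 30 without ERBB2 KO 1. Members past it numbered 1 with array quality weights and 0 to 1 when leaving out 1 library, and other p53 pathway genes 16 and 0 to 3. Genes with an unadjusted p below 0.05 numbered 1561 as reported, 4181 with array quality weights, 253 without WT 2 and WT 3, and 618 to 2473 when leaving out 1 library. Members with such a p numbered 0 without WT 2 and WT 3, 0 also without ERBB2 KO 1, and 1 to 3 when leaving out 1 library. Other pathway genes with such a p numbered 16 as reported, 29 with array quality weights, 5 without WT 2 and WT 3, 10 also without ERBB2 KO 1, and 6 to 19 when leaving out 1 library. Without WT 2 and WT 3 the lone WT library is assumed to vary like ERBB2 KO, so these counts say nothing about stability. The cause was not tested.

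Log2 differences changed sign as follows. Mdm2 was at 0.057 with quantile normalization, 0.021 with median-ratio size factors and 0.062 without WT 2 and WT 3. With array quality weights Bbc3 was at -0.0041 and Ddit4 at -0.044. Without WT 2 and WT 3, Zmat3 was at 0.36, Plk1 at -0.25, Mdm4 at -0.18, Cdkn2a at 0.31, Gadd45a at 0.11 and Pmaip1 at -1.51. With ERBB2 KO 1 left out as well, chosen after seeing the data, Zmat3 was at 0.51, Plk2 at 0.040, Aen at 0.050, Plk1 at -0.11, Mdm4 at -0.031 and Pmaip1 at -0.80. Leaving out 1 library gave ranges of -0.24 to 0.13 for Mdm2, -0.39 to 0.00060 for Phlda3, -0.17 to 0.33 for Bax, -0.024 to 0.84 for Bbc3, -0.16 to 1.11 for Ddit4, -0.77 to 0.21 for Cdkn2a and -0.60 to 0.86 for Pmaip1.

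Libraries of the same replicate number did not deviate together (correlations -0.22, -0.16 and -0.046), so the numbers do not pair them. With a replicate block, 1286 genes and 12 other pathway genes had an unadjusted p below 0.05, and 0 genes passed the threshold. Depth limits Trp53 most, with 4 to 14 reads a library.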
